A study of Mus musculus with 16 samples.

Results

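The miRNAs described here are mmu-miR-223-3p, mmu-miR-142a-3p and mmu-miR-142a-5p (below without the species prefix), 3 mature miRNAs that mark cells of the blood lineages. They were chosen by name from the 1247 mouse miRNAs on an Agilent array. All 3 passed the filter that left 231 miRNAs to be tested, which asked for detection on every one of the 4 arrays of some group. They were measured in RAW264.7, a macrophage-like mouse line grown from a virus-induced tumour, so every group is the same single cell line. The 4 groups were Th2_IL33 (grown for 48 h with IL-4 and IL-13 at 10 ng per ml, then given murine recombinant IL-33 at 20 ng per ml for 4 h), Th2 (the same growth, no IL-33), Media_IL33 (grown without the cytokines, then given IL-33) and Media (neither). IL-4 and IL-13 are the cytokines of type 2 T helper (Th2) cells, and IL-33 is an alarm cytokine released by damaged tissue. Each group holds 4 arrays, 1 from each of 4 independent experiments, and the replicate number of an array names its experiment.

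miRNAs are short RNAs that guide Argonaute proteins to messenger RNAs, mainly through the seed, bases 2 to 8 of the mature strand. miR-223 is a hallmark of myeloid cells, its gene is driven by the myeloid transcription factors PU.1 and C/EBP, and among its known targets are Mef2c, a regulator of myeloid progenitor growth, and Nlrp3, the sensor of an inflammasome. In mice, macrophages without miR-223 were reported to respond more to inflammatory stimuli and less to IL-4. miR-142 is made in nearly all blood cells and in few others, and both arms of its hairpin are used as mature miRNAs.

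The mature sequences are shown because the 3 strands are read by different seeds, and because the array probes pair with different stretches of them. They were taken from RefSeq (build GRCm38.p6), where 3 of 3 names matched, with the seed in capitals.
miR-223-3p: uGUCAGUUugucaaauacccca
miR-142a-3p: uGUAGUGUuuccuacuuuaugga
miR-142a-5p: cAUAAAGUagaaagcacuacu
No 2 of them share a seed, and 0 other mature mouse miRNAs of the RefSeq table carry any of the 3. miR-223-3p lies on the plus strand at chrX:96242884-96242905 in the miRNA gene Mir223. miR-142a-5p (chr11:87756867-87756887) and miR-142a-3p (chr11:87756903-87756925) are the arms of 1 hairpin on the plus strand, that of the gene Mir142.

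The hairpin of Mir142 is 64 bases long (chr11:87756864-87756927). It is printed with both arms in capitals, since the use of the arms is compared below.
Mir142 hairpin: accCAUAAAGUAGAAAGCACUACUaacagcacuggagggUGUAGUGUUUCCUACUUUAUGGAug
In the hairpin of Mir223 (110 bases, chrX:96242817-96242926) the capitals mark miR-223-3p. The other arm, miR-223-5p, is on the array with 3 probes and was detected on 0 of 16 arrays, with summed intensities between -7.36 and -0.121.
Mir223 hairpin: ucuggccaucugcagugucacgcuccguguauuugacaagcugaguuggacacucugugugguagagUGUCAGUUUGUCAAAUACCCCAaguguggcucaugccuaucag

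Each miRNA was read by 2 probes, with 20 spots a probe on every array. The probes are DNA complements of the mature strand. Those of miR-223-3p pair with its bases 2 to 22 and 3 to 22, and both reach into the seed.
miR-223-3p, longer probe: tggggtatttgacaaactgac
miR-223-3p, shorter probe: tggggtatttgacaaactga
Those of miR-142a-3p pair with bases 1 to 23 and 2 to 23.
miR-142a-3p, longer probe: tccataaagtaggaaacactaca
miR-142a-3p, shorter probe: tccataaagtaggaaacactac
Those of miR-142a-5p are the shortest and pair with bases 3 to 21 and 4 to 21.
miR-142a-5p, longer probe: agtagtgctttctacttta
miR-142a-5p, shorter probe: agtagtgctttctacttt
The complement of each probe was found in 0 other mature mouse miRNAs of the table. Mir142b, a gene on the opposite strand of the same locus, was not analysed here. Probes bind with different strength, so the level of 1 miRNA is not set against that of another here, and abundance is compared between groups for each miRNA by itself.

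Over the 16 arrays the longer miR-223-3p probe gave 131 to 450.2 intensity units, and its spots on 1 array varied by a median of 5.44% (coefficient of variation). The longer miR-142a-3p probe gave 226 to 427 units. The miR-142a-5p probes were the least precise of the 6, at 24.0 to 50.2 units for the longer and 19.7 to 56.9 for the shorter, with spot variation of 21.2% and 23.3%. miR-142a-5p was detected by the scanner software on 16 of 16 arrays, but on Media 2 only 9 and 8 of the 20 spots of its probes were well above background. The shorter probe had 6 such spots on Th2_IL33 4, 9 on Th2_IL33 1, 10 on Th2 3 and 11 on Th2 4. The longer probe had 11 to 13 on those arrays. On the remaining arrays the shorter probe had 13 to 20 in the cytokine-grown groups and 16 to 20 in the medium-grown groups. None of the spots of the 6 probes was saturated.

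The arrays differed in quality by ranges that bear on these values. The software detected 206 to 256 miRNAs per array. Media 3 and Media 1 had a median correlation of 0.874 and 0.920 with the other arrays of their group over the 231 miRNAs, as had Media 2 (0.920), and Th2_IL33 2 had 0.945, against 0.968 to 0.991 for the other 12 arrays. The arrays lay on 2 slides of 8, and slide 1 holds no Th2_IL33 array, so slide and group are only partly separable. Of 22 miRNAs that mark other cells (erythroid, lymphoid, epithelial, muscle, endothelial, stromal, liver and neural), 19 were detected on no array, among them the erythroid miR-451a and the lymphoid miR-150-5p (both also in the myeloid list below) and the liver miR-122-5p. The exceptions were miR-199a-3p (16 arrays), miR-206-3p (11) and miR-214-3p (6). The summed relative signal of the 22 lay between 0.212 and 0.291 in Th2_IL33, 0.274 and 0.319 in Th2, 0.231 and 0.313 in Media_IL33 and 0.198 and 0.338 in Media. The stromal miR-199a-3p was itself higher with the cytokines on average (log2 difference 0.50, limma adjusted p = 0.0254), and its part in the results below was not tested.

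miR-223-3p was the member that changed. It was higher in cells grown with IL-4 and IL-13, by about the same factor without and with IL-33, and IL-33 gave no difference past the threshold. Levels are given as relative signal, the sum of a miRNA's probes divided by the array's 75th percentile, taken from the 178 miRNAs that every array detected. For experiments 1 to 4 in order, miR-223-3p read 1.11, 1.19, 1.02 and 0.598 in Th2, against 0.610, 0.424, 0.341 and 0.403 in Media. With IL-33 it read 0.980, 1.09, 0.836 and 0.600 in Th2_IL33, against 0.399, 0.439, 0.459 and 0.336 in Media_IL33. Th2_IL33 and Media_IL33 did not overlap, while Th2 and Media overlapped by 1 array on each side, Th2 4 lying just under Media 1.

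**Figure D1:**
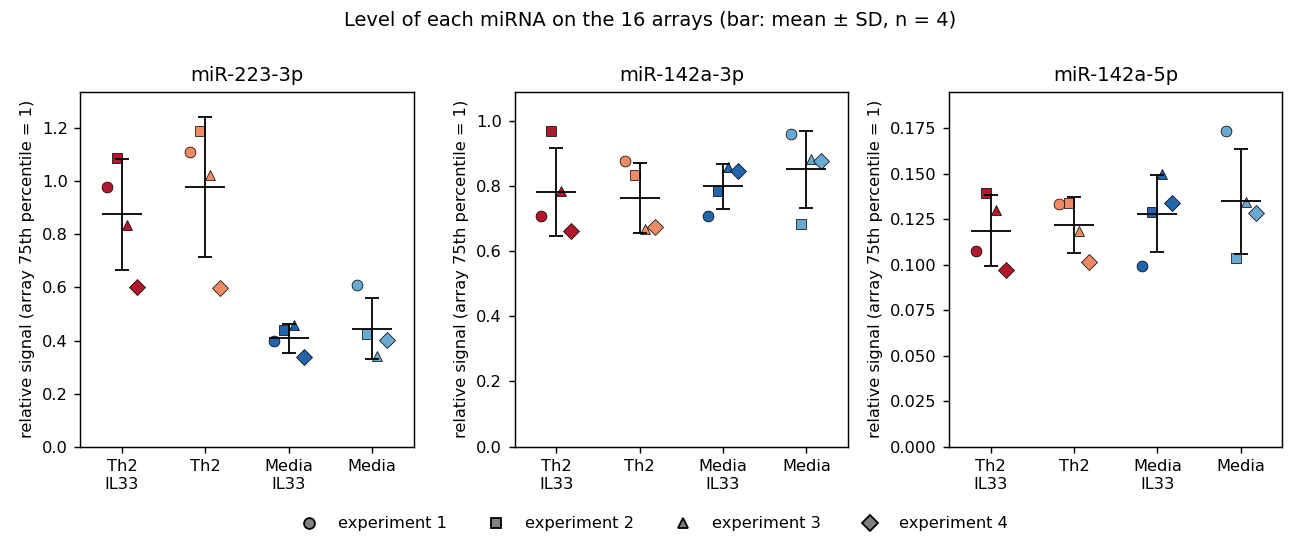
Relative signal (vertical axis, 1 is the array's 75th percentile) of miR-223-3p, miR-142a-3p and miR-142a-5p on the 16 arrays, by group. Symbols are single arrays, their shape gives the experiment, and bars are the mean ± SD of 4 arrays. The miR-223-3p arrays of Th2_IL33 and Th2 lie at 0.598 or above and those of Media_IL33 and Media at 0.610 or below, whereas the groups overlap for both arms of miR-142a.

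The mean was 0.980 ± 0.264 in Th2 and 0.444 ± 0.116 in Media (SD, n = 4 each). This is a 2.18-fold difference (95% interval 1.53 to 3.11, log2 1.13 ± 0.24 SE, limma adjusted p = 0.00495). With IL-33 it was 0.875 ± 0.210 in Th2_IL33 and 0.408 ± 0.0542 in Media_IL33, a 2.11-fold difference (95% interval 1.48 to 3.01, limma adjusted p = 0.00687). Scaling to the percentile over all miRNAs ended both calls (limma adjusted p = 0.0695 without and 0.0915 with IL-33), and the authors' deposited table (0.0558) and a fit with no detection filter (0.0633) ended that with IL-33. Averaged over cells with and without IL-33, the difference was 2.15-fold (95% interval 1.67 to 2.76, log2 1.10 ± 0.17 SE, limma adjusted p = 0.000169). It was positive in 8 of 8 pairs of arrays from the same experiment. The pairs come from 4 experiments, so they are not all independent.

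Of the 3 members, 1 was called in each of these comparisons. Of all tested miRNAs, 9.52% were called in Th2 against Media (8.66% as higher), 9.52% in Th2_IL33 against Media_IL33 (8.23% as higher) and 19.9% in the average (16% as higher). Groups that did not overlap were seen for 10.8% of the tested miRNAs in the comparison without IL-33 and for 16% with it. By unadjusted p, miR-223-3p ranked 14th, 15th and 15th of 231 in the 3 comparisons.

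Both probes of miR-223-3p gave the same picture. The log2 difference of Th2 from Media was 1.13 on the longer probe and 1.12 on the shorter one, and that of Th2_IL33 from Media_IL33 was 1.04 and 1.17. The probes stop 1 base apart at the 5′ end of the miRNA, so they are readings of the same RNA and no replicates of the comparison.

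The size of the difference varied between experiments. Without IL-33 the log2 difference of Th2 from Media was 0.86, 1.49, 1.58 and 0.57 in experiments 1 to 4. With IL-33 that of Th2_IL33 from Media_IL33 was 1.30, 1.31, 0.86 and 0.84. Experiment 4 had the smallest in both. In that experiment miR-223-3p was below its group mean in all 4 groups, by a mean of -0.39 (range -0.66 to -0.11) on the log2 scale, and of the 231 tested miRNAs only 1 had a lower mean deviation there.

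**Figure D2:**
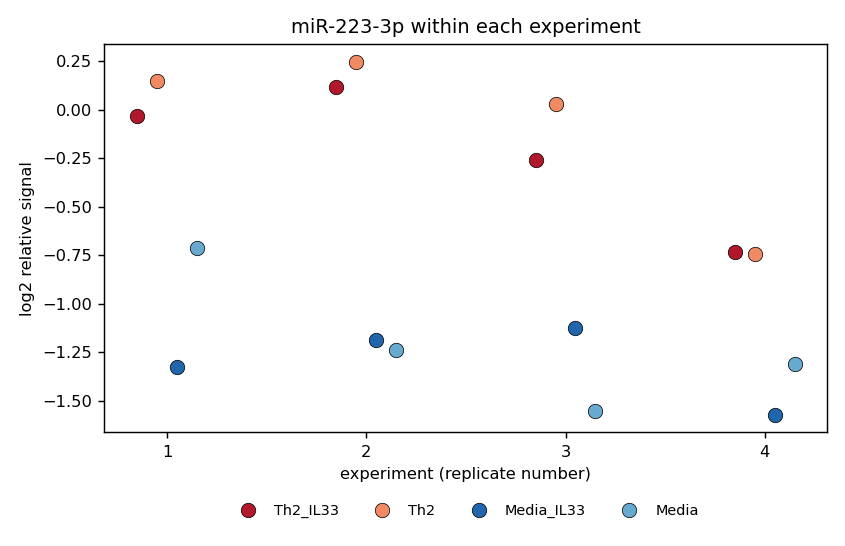
Log2 relative signal of miR-223-3p (vertical axis) in each of the 4 experiments (horizontal axis), 1 point per array, coloured by group. In every experiment Th2_IL33 and Th2 lie above Media_IL33 and Media, and all 4 points of experiment 4 lie below the mean of their group.

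Th2 and Media each have 3 arrays on slide 1 and 1 on slide 2, so a slide block leaves their difference at 1.13 by construction (limma adjusted p = 0.00748). Th2_IL33 lies wholly on slide 2, whereas Media_IL33 has 2 arrays on each slide. Within slide 1, with 3 arrays each of Th2 and Media, the log2 difference of Th2 from Media was 1.51 (limma adjusted p = 0.00131). Slide 2 holds 1 array of each, Th2 4 and Media 1 from different experiments, and there the difference was -0.030 (limma adjusted p = 0.991, with the spread taken from the other groups). Th2_IL33 against Media_IL33 gave 1.03 within slide 2 (4 arrays against 2, limma adjusted p = 0.0496) and 1.09 with slide as a block (limma adjusted p = 0.0216). The average of both comparisons was 0.50 within slide 2 (limma adjusted p = 0.324). Without Media 1, Media 3 and Th2_IL33 2 the log2 differences were 1.20 and 0.96 (limma adjusted p = 0.00489 and 0.00966). That fit kept Media 2, whose median correlation with its group equalled that of Media 1 and which had the fewest detected miRNAs.

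miR-142a-3p was called in none of the 7 comparisons in this fit. With only the brightest probe of each miRNA its average log2 difference for growth with the cytokines was -0.24 (limma adjusted p = 0.0344), and in the authors' deposited table it was -0.29 (0.0599), against -0.10 with the probes summed (0.473). The brightest-probe fit also takes the array scaling from those probes. With the scaling of the summed fit, the longer and brighter miR-142a-3p probe averaged -0.13. In experiments 1 to 4 the summed miR-142a-3p read 0.875, 0.832, 0.668 and 0.675 in Th2, against 0.959, 0.682, 0.883 and 0.875 in Media. With IL-33 it read 0.708, 0.967, 0.784 and 0.662 in Th2_IL33, against 0.708, 0.783, 0.857 and 0.844 in Media_IL33. All groups overlapped, and in both comparisons experiment 2 alone had the cytokine-grown array clearly above its partner.

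The mean of miR-142a-3p was 0.762 ± 0.107 in Th2 and 0.850 ± 0.118 in Media (SD, n = 4 each, 0.897-fold, 95% interval 0.721 to 1.12, limma adjusted p = 0.593). With IL-33 it was 0.780 ± 0.134 in Th2_IL33 and 0.798 ± 0.0684 in Media_IL33 (0.970-fold, 95% interval 0.779 to 1.21, limma adjusted p = 0.828). The average effect of growth with the cytokines was 0.933-fold (95% interval 0.799 to 1.09). This interval does not reach the 1.67-fold at the lower end of that of miR-223-3p. Its 2 probes differed in sign with IL-33, where the longer gave -0.09 and the shorter 0.08 on the log2 scale, both within the interval of the summed value (-0.36 to 0.27).

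miR-142a-5p, the partner arm, moved with miR-142a-3p from array to array and was called in none of the comparisons. It read 0.133, 0.134, 0.119 and 0.101 in Th2, against 0.173, 0.104, 0.134 and 0.128 in Media. With IL-33 it read 0.108, 0.140, 0.130 and 0.0974 in Th2_IL33, against 0.0993, 0.129, 0.150 and 0.134 in Media_IL33. The groups overlapped in each comparison, and the highest of the 16 values was that of Media 1.

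Its mean was 0.122 ± 0.0153 in Th2 and 0.135 ± 0.0289 in Media (SD, n = 4 each, 0.912-fold, 95% interval 0.703 to 1.18, limma adjusted p = 0.760). It was 0.119 ± 0.0195 in Th2_IL33 and 0.128 ± 0.0212 in Media_IL33 (0.927-fold, 95% interval 0.714 to 1.20, limma adjusted p = 0.678). Averaged, growth with the cytokines gave 0.920-fold (95% interval 0.765 to 1.11). Within slide 1 the log2 difference of Th2 from Media was 0.08 and between the single arrays of slide 2 it was -0.77 (limma adjusted p = 0.776 and 0.411). Those of miR-142a-3p were -0.04 and -0.51 (0.895 and 0.433).

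IL-33 for 4 h gave no difference past the threshold in any of the 3 miRNAs. In medium-grown cells miR-223-3p was 0.408 ± 0.0542 in Media_IL33 and 0.444 ± 0.116 in Media (SD, n = 4 each, 0.934-fold, 95% interval 0.655 to 1.33, limma adjusted p = 1). In cells grown with the cytokines it was 0.875 ± 0.210 in Th2_IL33 and 0.980 ± 0.264 in Th2 (0.902-fold, 95% interval 0.633 to 1.29, limma adjusted p = 1). The experiments disagreed in sign in medium-grown cells, where the log2 differences were -0.61, 0.05, 0.43 and -0.26. In cytokine-grown cells they were -0.18, -0.13, -0.29 and 0.01. Of all tested miRNAs, 1.73% were called in each of these comparisons and 2.16% in their average. Groups that did not overlap, as none of the 3 members had here, were seen for 3.9% in cytokine-grown and 2.16% in medium-grown cells.

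For the arms of miR-142a the IL-33 fold in medium-grown cells was 0.944 for miR-142a-3p (95% interval 0.758 to 1.17) and 0.955 for miR-142a-5p (0.735 to 1.24). In cytokine-grown cells it was 1.02 (0.819 to 1.27) and 0.970 (0.747 to 1.26). The limma adjusted p was 1 in all 4. The average IL-33 fold was best bounded for miR-142a-3p, at 0.981 with a 95% interval of 0.840 to 1.15, and it was 0.963 (0.800 to 1.16) for miR-142a-5p and 0.918 (0.714 to 1.18) for miR-223-3p.

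The series asks whether growth with Th2 cytokines alters the response to IL-33, which the interaction tests by subtracting the IL-33 difference of medium-grown cells from that of cytokine-grown cells. On the log2 scale it was -0.05 ± 0.34 SE for miR-223-3p, 0.11 ± 0.21 for miR-142a-3p and 0.02 ± 0.25 for miR-142a-5p (limma adjusted p = 0.995 each). The 95% interval for miR-223-3p ran from -0.77 to 0.67, so a change of its response within that range cannot be told from none. The interval is not adjusted for the 231 tests. With 4 arrays a group, even a change beyond it could miss the adjusted threshold. No miRNA was called in the interaction (0 of 231 by limma, and 5 at an unadjusted p under 0.05).

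**Figure D3:**
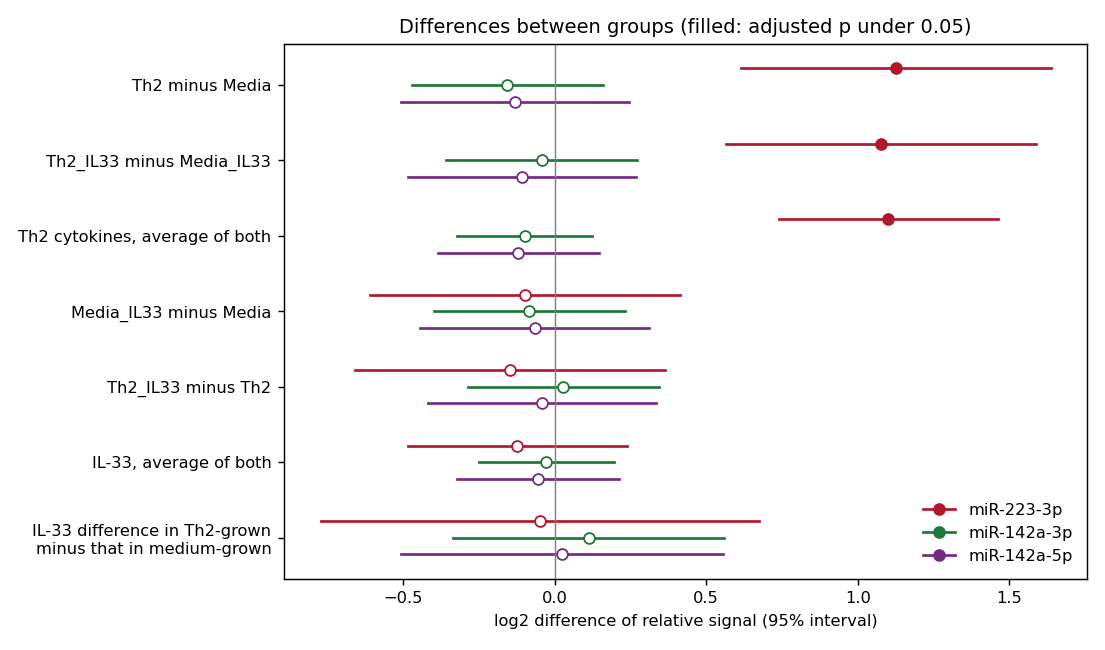
Log2 differences of relative signal between groups (horizontal axis) for miR-223-3p, miR-142a-3p and miR-142a-5p in 7 comparisons (rows), with the 95% interval from limma. Filled points have an adjusted p under 0.05. The 3 filled points are those of miR-223-3p for growth with Th2 cytokines, at 1.13, 1.08 and 1.10.

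By mean level, miR-223-3p was ordered Th2 (0.980), Th2_IL33 (0.875), Media (0.444) and Media_IL33 (0.408). Neither the upper nor the lower pair of neighbours differed past the threshold, and the step in the order lies between Th2_IL33 (0.600 to 1.09) and Media (0.341 to 0.610), which share a narrow stretch. For miR-142a-3p the order was Media (0.850), Media_IL33 (0.798), Th2_IL33 (0.780) and Th2 (0.762). For miR-142a-5p it was Media (0.135), Media_IL33 (0.128), Th2 (0.122) and Th2_IL33 (0.119). No neighbours in these orders differed beyond their spread.

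The ratio of miR-223-3p to miR-142a-3p on the same array compares the response of the lineage miRNAs with each other and does not depend on how the array was scaled. Only its change between groups is read, since the probes differ. The log2 ratio was 0.34, 0.51, 0.61 and -0.17 in Th2 in experiments 1 to 4, against -0.65, -0.69, -1.37 and -1.12 in Media. It was 0.47, 0.17, 0.09 and -0.14 in Th2_IL33, against -0.83, -0.84, -0.90 and -1.33 in Media_IL33. On this measure neither pair of groups overlapped.

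The ratio differed by 1.28 between Th2 (0.32 ± 0.35) and Media (-0.96 ± 0.35), and by 1.12 between Th2_IL33 (0.15 ± 0.25) and Media_IL33 (-0.97 ± 0.24, SD, n = 4 each). Both gave an exact two-sided permutation p of 0.0286, the smallest that 4 arrays against 4 allow, or 0.114 adjusted over the 12 ratio comparisons made. The average difference was 1.20, positive in 8 of 8 pairs (exact permutation p = 0.000408, the smallest possible, adjusted 0.00490). With the arrays paired by experiment the exact sign-flip p of this average was 0.00781, the smallest that 8 pairs allow. The test flips the 8 pairs as if independent, although they come from 4 experiments, so this p overstates the replication. After adjustment it was 0.0938, so the call did not stand there. With no other ratio comparison as low, even the smallest p could not pass after adjustment, so that loss follows from the number of pairs and comparisons. With IL-33 the ratio differed by -0.18 in cytokine-grown and -0.02 in medium-grown cells, neither past the threshold (exact permutation p = 0.429 and 1). Within slide 1 the ratio differed by 1.55 between Th2 and Media. Within slide 2 it differed by 0.48 between the single arrays and by 0.98 between Th2_IL33 and Media_IL33.

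Arm use of miR-142a was compared as the log2 ratio of miR-142a-3p to miR-142a-5p on the same array. It was 2.72, 2.64, 2.49 and 2.74 in Th2 in experiments 1 to 4, against 2.47, 2.72, 2.72 and 2.77 in Media. It was 2.72, 2.79, 2.59 and 2.76 in Th2_IL33, against 2.83, 2.60, 2.52 and 2.65 in Media_IL33. All 16 values lay between 2.47 and 2.83, and every group overlapped every other.

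The group means of this ratio were 2.72 ± 0.09 in Th2_IL33, 2.65 ± 0.11 in Th2, 2.65 ± 0.13 in Media_IL33 and 2.67 ± 0.14 in Media (SD, n = 4 each). The average difference was 0.02 for growth with the cytokines (exact permutation p = 0.715) and 0.03 for IL-33 (exact permutation p = 0.639), and both p-values were 0.858 after adjustment over the 12 ratio comparisons. These differences are smaller than the spread between replicates. The one for growth with the cytokines depended on the processing. With quantile normalization it was 0.21 (adjusted exact permutation p = 0.0563), larger than that spread. With normexp background correction it was -0.11 (adjusted exact permutation p = 0.324). Between the single arrays of slide 2, Th2 4 and Media 1, the arm ratio differed by 0.27, and Media 1 had the lowest ratio of all arrays.

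**Figure D4:**
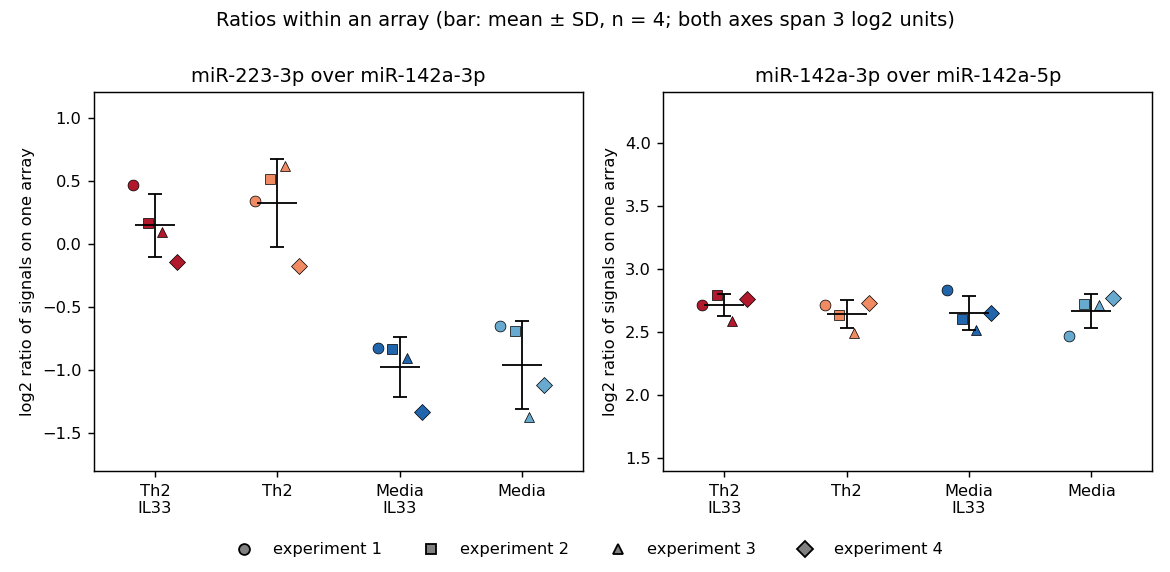
Log2 ratio of miR-223-3p to miR-142a-3p (left) and of miR-142a-3p to miR-142a-5p (right) on each array, by group. Symbols are arrays, their shape gives the experiment, bars are mean ± SD of 4 arrays, and both vertical axes span 3 log2 units. The left ratio is at -0.17 or above in Th2_IL33 and Th2 and at -0.65 or below in Media_IL33 and Media, while the right ratio stays between 2.47 and 2.83 in all groups.

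Across the 16 arrays the arms of miR-142a followed each other closely (Pearson r = 0.886, Spearman rho = 0.865, and r = 0.884 of the deviations from the group means). These points share groups, experiments and the scaling factor of each array, so the correlations describe the data and were not tested. miR-223-3p had r = 0.01 with miR-142a-3p and 0.07 with miR-142a-5p over the 16 arrays, and 0.530 and 0.629 of the deviations within groups.

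By Pearson r the miRNA most like miR-223-3p over the 16 arrays was miR-342-3p, encoded in an intron of the gene Evl (r = 0.966, rho = 0.932, and 0.949 within groups). It read 0.503 ± 0.119 in Th2 and 0.220 ± 0.0653 in Media, and 0.555 ± 0.119 in Th2_IL33 and 0.236 ± 0.0222 in Media_IL33 (SD, n = 4 each). Like miR-223-3p it was low in experiment 4, by a mean of -0.36 on the log2 scale, which its choice by correlation partly fixes. Next by r came miR-324-5p (r = 0.926, and 0.803 within groups), which had the higher rho (0.962), and miR-378d (r = 0.916, rho = 0.909, and 0.576 within groups). These had mean deviations of -0.11 and -0.01 in experiment 4. With growth in the cytokines miR-342-3p averaged 2.31-fold, miR-324-5p 1.41-fold and miR-378d 2.34-fold their level without, values that the choice by likeness partly fixes.

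For miR-142a-3p the most similar miRNAs after its partner arm were miR-20b-5p (r = 0.664, rho = 0.538) and miR-301a-3p (r = 0.627, rho = 0.50). For miR-142a-5p they were miR-20b-5p (r = 0.698, rho = 0.550), a member of a paralog of the miR-17-92 cluster, and miR-29b-3p (r = 0.684, rho = 0.656). Within groups the r of miR-29b-3p was 0.835, not far below the 0.884 of the arms with each other.

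Other miRNAs with known roles in myeloid cells and leucocytes were taken as a list of 23, of which 22 are on the array and 16 could be tested. The list was chosen with earlier results of these data known, so counts of its members are a description and no independent support. With Th2 against Media 4 of the 16 were called higher and 0 lower, where 9.52% of all tested miRNAs were called. The 4 were miR-511-3p, whose hairpin lies within Mrc1 (the mannose receptor, a marker of IL-4-treated macrophages), miR-342-3p (log2 difference 1.21), miR-125b-5p (0.75), a regulator of myeloid cell growth, and miR-21a-5p (0.80, limma adjusted p = 0.0386). miR-511-3p was detected on 8 arrays and was listed at 0 in Media and Media_IL33, so it entered the test only through the groups where it is high and had to differ. Over the 13 list members detected on every array, a restriction chosen after seeing the values, 3 were higher and 0 lower, with a median log2 difference of 0.37. Over all 178 such miRNAs 8.99% were called and the median was 0.06.

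With Th2_IL33 against Media_IL33 4 of the 16 were called higher and 0 lower, beside 9.52% of all tested miRNAs. They were miR-511-3p, miR-342-3p, miR-125b-5p and miR-155-5p (0.72, limma adjusted p = 0.0246), an NF-kB-induced miRNA, while miR-21a-5p was not called (0.60, limma adjusted p = 0.139). Of the 13 detected on every array 2 were higher and 0 lower (median 0.34), beside 7.87% called and a median of 0.13 over the 178. With IL-33 2 of the 16 were called higher and 0 lower in cytokine-grown and in medium-grown cells alike, beside 1.73% of all tested miRNAs in each. Both times they were miR-146a-5p, likewise NF-kB-induced, and miR-155-5p. The log2 difference of miR-146a-5p was 0.90 in cytokine-grown and 1.08 in medium-grown cells. Of the 13 detected on every array 1 was higher and 0 lower in each. Over the 178, 1.12% were called in cytokine-grown and 0.562% in medium-grown cells. miR-155-5p was detected on 11 arrays and had a mean of 0.0365 in Media, near the floor of 0.0353. It too passed the filter through groups where it is high, so its differences and its place in the counts above are no support for a response.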

How the data were processed

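Total RNA of 16 cultures was hybridised to 1-colour (Cy3) arrays. Per the file headers, the authors used version 10.7.3.1 of Agilent's Feature Extraction software, and the deposited intensity of each spot has background and spatial trend subtracted, with no normalization between arrays. A deposited table of quantile normalized intensities (Partek 6.6 and RMA, per the submitters' processing notes) served as an alternative.

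Control and outlier spots were dropped (2040 to 3929 outliers per array), spots of a probe averaged, probes of a miRNA summed, and arrays divided by the 75th percentile (427 to 654 units) over 178 miRNAs. Values below 0.0353, the 1st percentile of detected signals, were raised to it. limma 3.58.1 in R 4.3.3 fitted 1 mean per group to all 16 arrays over 231 miRNAs (12 residual degrees of freedom), with Benjamini-Hochberg adjustment and a threshold of 0.05. Ratios were tested by exact permutation of arrays, within the levels of the other treatment for averages. Pipelines were tested on simulated data.

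Replicate numbers pair the arrays, since the labels give each number the same experiment, although deviations from group means of same-numbered arrays correlated unevenly (median r -0.13, -0.12, 0.32 and 0.16 in experiments 1 to 4). Array number limits the precision. No arrays were identical. The named miRNAs are the 3 members, the 3 most correlated with each, and up to 4 of the myeloid list. Members and lists were chosen with earlier results of these data known.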

Additional observations from a re-analysis of the deposited data

Results flagged for a closer look

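Of 20 sets of 4 arrays checked for a single array far from the others (3 levels and 2 ratios in 4 groups), 2 stood out, and chance flags about 1 in 20. The arm ratio of miR-142a was 2.47 (log2) on Media 1, against 2.72, 2.72 and 2.77 on the other Media arrays. The ratio of miR-223-3p to miR-142a-3p was -1.33 on Media_IL33 4, against -0.83, -0.84 and -0.90 on the other Media_IL33 arrays.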

How the results depend on the processing

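The higher miR-223-3p in Th2 than in Media was called under 29 of 31 alternatives and that in Th2_IL33 than in Media_IL33 under 27 of 30. Leaving out single arrays ended neither call (log2 1.01 to 1.35 and 0.96 to 1.25). Scaling to the percentile over all miRNAs gave 1.07 (limma adjusted p = 0.0695) and 1.04 (0.0915). In the authors' deposited table the difference with IL-33 was 1.01 (0.0558), and without a detection filter it was 1.08 (0.0633), a fit in which more miRNAs enter the adjustment and many have no spread. With normexp background correction the differences were 0.74 each. The reversal and the loss within slide 2 (-0.030, average 0.50) rest on 1 Th2 and 1 Media array. With the replicate block the limma calls of miR-223-3p stood (adjusted p = 0.000748 and 0.00113). Of the ratios, the replicate block ended the call of the averaged miR-223-3p to miR-142a-3p difference (1.20, adjusted exact sign-flip p = 0.0938), and it changed no other call of a member or ratio. With the unadjusted p at its smallest possible value, that loss follows from the number of pairs and comparisons. Within slide 2 that ratio differed by 0.48 (Th2 with Media), 0.73 (average) and 0.32 (Th2_IL33 with Th2). The arm ratio differed by -0.15 (Media_IL33 with Media) within slide 1, and by 0.27 (Th2 with Media) and 0.25 (Media_IL33 with Media) within slide 2. Its average difference for growth with the cytokines was 0.21 with quantile normalization and -0.11 with normexp, neither called. With the brightest probe of each miRNA, and arrays scaled by those probes, miR-142a-3p fell by 0.24 on average with the cytokines (limma adjusted p = 0.0344). With the scaling of the summed fit that probe gave -0.13. The cause of the fall itself was not tested. Values of uncalled members and ratios changed sign in places. Counts of called miRNAs moved by over 1.5 times under some settings. For Th2 against Media, 22 became 64 with array weights. For Th2_IL33 against Media_IL33, 22 became 12 with the percentile over all miRNAs, 14 in the authors' table, 14 without a filter, 37 with blocks for replicate and slide, 71 with weights and 19 to 36 without single arrays (36 without Media 3). For the average of both, 46 became 25 without a filter, 71 with both blocks and 98 with weights. For Media_IL33 against Media, 4 became 1 with normexp and 2 without Media 1, Media 3 and Th2_IL33 2. For Th2_IL33 against Th2, 4 became 2 with the percentile over all miRNAs, normexp or the authors' table. For the IL-33 average, 5 became 3 with quantile normalization, normexp or the authors' table, and 8 with the brightest probe or without Media 4. For the interaction, 0 became 1 with weights.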
